A study of Arabidopsis thaliana with 30 samples.

Results

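The 42 genes described here are the nuclear genes for light-harvesting proteins and photosystem subunits in leaves of A. thaliana (ecotype Columbia). They were chosen by locus as the nuclear-encoded LHCB, LHCA, PSB and PSA genes, and make up 42 of the 37513 entries of the count table, of which 28253 had at least 1 count. They fall into 4 families: 14 LHCB genes for the antenna of photosystem II (PSII), 6 LHCA genes for the antenna of photosystem I (PSI), 10 PSB genes for PSII subunits and 12 PSA genes for PSI subunits. Leaf mRNA came from plants that overexpressed 1 of 2 grain amaranth genes behind the constitutive 35S promoter, and from wild type. AhHAB4-PAI-1, which codes for an RNA-binding protein, was overexpressed in line L13, and Ah2880, which codes for a small protein of unknown function, in line L12; each line is 1 homozygous transgenic line, and WT plants carry no transgene. Plants of 4 weeks by the sample labels (the main text gives another age) were sampled at 45 °C after 1 h (HS-1), 5.5 h by the labels (HS-5; given without the fraction elsewhere) and 11 h (HS-11) of heat shock (HS), or after 22 h of HS followed by 1 day (R-1) or 3 days (R-3) at 22 °C. Each of the 15 combinations of line and stage had 2 biological replicates of 10 pooled plants, which gave 30 libraries. All plants had been heated, so levels compare lines and stages and not heated with unheated leaves. The paper describes HS under constant illumination and recovery under a light and dark photoperiod, so the light regime changed with stage as well. Hours of day at sampling are not given in the sources used here. In steps between stages, heat or recovery, light and time of day therefore cannot be told apart.

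In chloroplasts, PSII splits water and passes electrons through the cytochrome b6f complex and plastocyanin to PSI, which reduces ferredoxin. The LHC proteins bind chlorophyll and feed excitation energy to both photosystems: LHCB1, LHCB2 and LHCB3 form the major trimeric antenna, LHCB4 (CP29), LHCB5 (CP26) and LHCB6 (CP24) are its minor monomers, and LHCA proteins form the belt of PSI. These proteins are made in the cytosol and imported, whereas the reaction-center proteins that bind the primary pigments are encoded in the plastid. The mRNAs of the nuclear genes are among the most abundant in a green leaf and are known to depend on light, the clock and signals from the plastid.

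The 42 loci cover the chain from antenna to electron exit. LHCII trimers are coded by LHCB1.1 (AT1G29920), LHCB1.2 (AT1G29910), LHCB1.3 (AT1G29930), LHCB1.4 (AT2G34430) and LHCB1.5 (AT2G34420), by LHCB2.1 (AT2G05100), LHCB2.2 (AT2G05070) and LHCB2.3 (AT3G27690), and by LHCB3 (AT5G54270). Its monomers are coded by LHCB4.1 (AT5G01530), LHCB4.2 (AT3G08940), LHCB4.3 (AT2G40100), LHCB5 (AT4G10340) and LHCB6 (AT1G15820). The PSI antenna comprises LHCA1 (AT3G54890), LHCA2 (AT3G61470), LHCA3 (AT1G61520) and LHCA4 (AT3G47470), and the minor LHCA5 (AT1G45474) and LHCA6 (AT1G19150), which link PSI to the NDH complex. Of the PSB genes, PSBO1 (AT5G66570), PSBO2 (AT3G50820), PSBP1 (AT1G06680), PSBQ1 (AT4G21280) and PSBQ2 (AT4G05180) code for extrinsic proteins of the oxygen-evolving complex. PSBR (AT1G79040), PSBY (AT1G67740), PSBW (AT2G30570) and PSBX (AT2G06520) are small PSII subunits, and PSBS (AT1G44575) triggers the dissipation of excess light as heat. Of the PSA genes, PSAD1 (AT4G02770), PSAD2 (AT1G03130), PSAE1 (AT4G28750) and PSAE2 (AT2G20260) serve the ferredoxin side of PSI, and PSAF (AT1G31330) and PSAN (AT5G64040) the plastocyanin side. PSAG (AT1G55670) and PSAK (AT1G30380) contact the LHCI belt, and PSAH1 (AT3G16140), PSAH2 (AT1G52230), PSAL (AT4G12800) and PSAO (AT1G08380) form the docking site for LHCII. Spans of 17 of the 42 genes overlap another annotated gene, and since the strand setting of the counting is not given in the sources used here, reads of such neighbors may be included. LHCB2.3, for example, shares 595 bases with AT3G27700, which had 3132 counts over all libraries. PSAH1, with 34018 counts, shares 788 bases with AT3G16130, which had 23711.

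Between 46825 and 5739590 counts were assigned per library, with a median of 2565863.5. Both WT R-3 libraries lay far below the others, of which the smallest held 686550 counts. The text gives the counts there beside the levels of single genes among the 42, but not beside marker sums. Normalization factors (TMM) differed between groups, so that several comparisons below depend on the scaling, and values without TMM (library totals) are given where they do. Leaf mesophyll markers (RBCS1A, CA1 and RCA) were above 0 in 30 of 30 libraries, the root markers EXP7, COBL9 and CASP1 were at 0 in 28, 29 and 12 libraries (CASP1 reached 8.01 CPM, counts scaled to a common library size after TMM), and the seed storage genes CRA1, CRC and SESA1 were at 0 in 17, 27 and 24, with none above 1.4 CPM. Flower markers were less uniform: AG, AP3 and PI were at 0 in 8, 10 and 1 libraries. PI had a median of 3.31 CPM and reached 57.5 CPM in replicate 2 of WT R-3, where 1 read stands for 11.5 CPM (12.6 CPM in replicate 1). At HS-1 the flower markers summed to 22.5 and 20.3 CPM in L12 against 2.28 and 1.71 CPM in WT, with 2 of the 3 called higher in L12. All 42 genes passed the filter on low counts.

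The 42 genes together held between 8.90 and 10.7% of all counts after 1 h of HS and lost part of that share in each line by HS-11. L13 lay above L12 and WT at HS-11, and the lines lay furthest apart at R-3. At HS-1 they held 9.67 and 8.90% of the counts of the L13 libraries, 10.7 and 10.4% in L12 and 10.2 and 9.97% in WT. At HS-5 they held 8.36 and 8.69% in L13, 11.1 and 8.52% in L12 and 8.76 and 8.68% in WT, so that L12 overlapped its HS-1 range. At HS-11 they held 5.75 and 5.60% in L13, 4.23 and 3.81% in L12 and 3.96 and 4.3% in WT, so that L13 lay above L12 and WT. At R-1 the share was 4.45 and 3.90% in L13, 2.55 and 2.56% in L12 and 3.70 and 3.28% in WT, with L12 lowest. At R-3 it was 8.98 and 10.9% in L13, 2.85 and 2.89% in L12, and 0.737 and 0.779% in WT, and the 3 lines did not overlap. In bulk leaves, fewer cells of a type and less RNA per cell cannot be told apart. The summed level of the 3 mesophyll markers moved alike at R-3, with 7485 and 9964 CPM in L13, 2911 and 2785 CPM in L12 and 679 and 748 CPM in WT. These 3 markers are themselves nuclear genes of photosynthesis, so their sum cannot tell cell makeup from a shared change of such genes. The part of cell makeup in the shares was not tested.

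**Figure D1:**
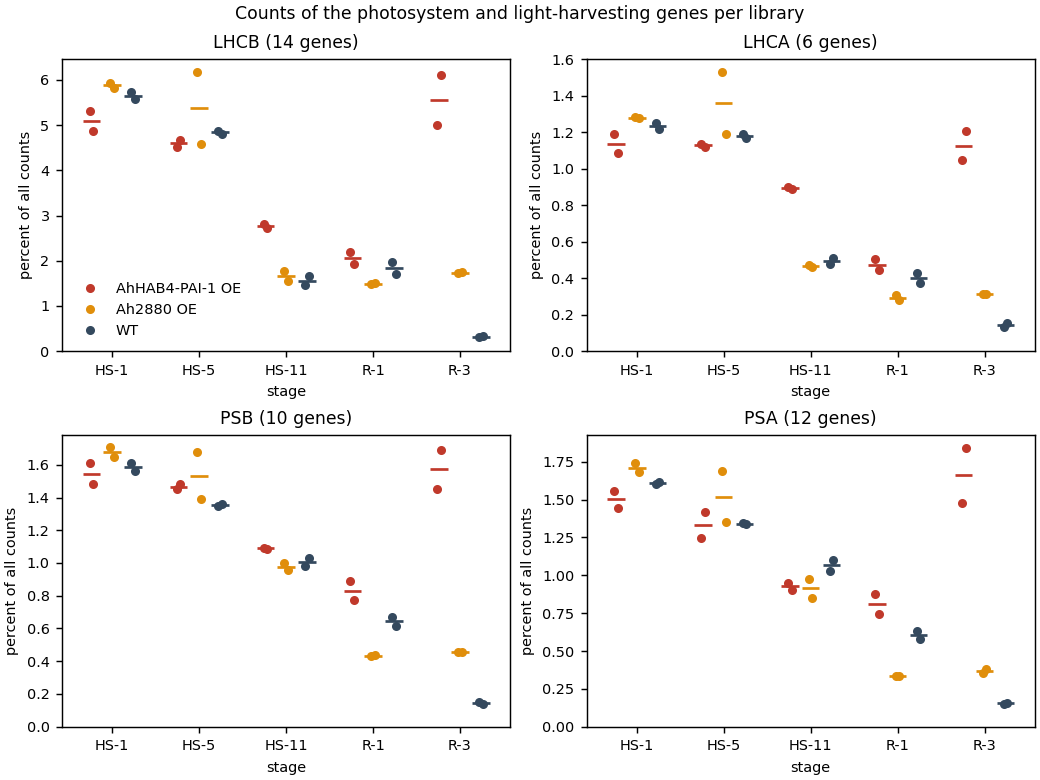
Percent of all counts held by the LHCB, LHCA, PSB and PSA genes (one panel each, y axis in percent) at the 5 stages (x axis), with 1 point per library and a short bar at the mean of each group of L13, L12 or WT. At R-3 the L13 libraries lie above L12 and WT in each panel, where the 42 genes together hold 8.98 and 10.9% of counts in L13 and 0.737 and 0.779% in WT.

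From HS-1 to HS-5 nearly all 42 genes fell in each line with TMM scaling, whereas far fewer were called lower on library totals. A gene was called when its adjusted p (edgeR quasi-likelihood test, Benjamini-Hochberg over 19761 genes) was under 0.01. In L13, 37 genes were lower and 0 higher at HS-5 than at HS-1, with a median log2 fold change of -0.77, where the median of all genes was 0.00 and 13.4% of all genes were called lower and 8.67% higher. In L12, 32 were lower and 1 (LHCB1.4, 0.55) was higher, with a median of -0.65 (all genes 0.03, with 17.4% lower and 16% higher). In WT, 39 were lower and 0 higher, with a median of -0.83 (all genes 0.00, with 20.9% lower and 17.9% higher). On library totals the counts were 9 lower and 1 higher in L13, 13 and 4 in L12, and 17 and 1 in WT, with all-gene medians of 0.61, 0.49 and 0.59. Without replicate 1 of the groups compared L13 had 19 genes called, and without replicate 2 L12 had 18. The deepest fall was that of LHCB2.3, a copy of the major LHCII antenna. It had 240 and 292 CPM at HS-5 against 1678 and 1685 CPM at HS-1 in L13, a log2 fold change of -2.66 ± 0.14 (SE, adjusted p = 1.4568e-22). In L12 the gene had 337 and 238 CPM against 1557 and 1625 CPM, and in WT 387 and 374 CPM against 1381 and 1398 CPM. No stage overlapped the other in any of the 3 lines.

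Between HS-5 and HS-11 the lines differed in which families moved. In L13, 40 genes were lower at HS-11 than at HS-5 and 0 higher, with a median of -0.93 (all genes 0.05, with 11.7% lower and 8% higher). In L12, 32 were lower and 3 (LHCB4.3, LHCA5 and PSBQ1) higher, with a median of -0.73 (all genes -0.25, with 26.3% lower and 19.3% higher), and on library totals 37 were lower and 0 higher. WT had 17 lower and 10 higher, with a median of -0.20 (all genes -0.32, with 27.9% lower and 21.6% higher), and on library totals 29 lower and 2 higher. The WT calls divided by family. Antenna genes of PSII were 11 lower and 1 higher of 14 (median -1.59), and 13 and 1 on library totals, whereas PSA genes were 6 higher and 1 lower of 12 (median 0.23), which on library totals became 0 higher and 6 lower (median -0.29). LHCB1.4 fell most among the LHCB1 copies in WT, to 209 and 302 CPM at HS-11 against 2788 and 2674 CPM at HS-5 (-3.40). In L12 the same copy fell to 218 and 167 CPM against 4507 and 2711 CPM (-4.22). In L13 it fell to 775 and 658 CPM against 990 and 1355 CPM (-0.71).

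**Figure D2:**
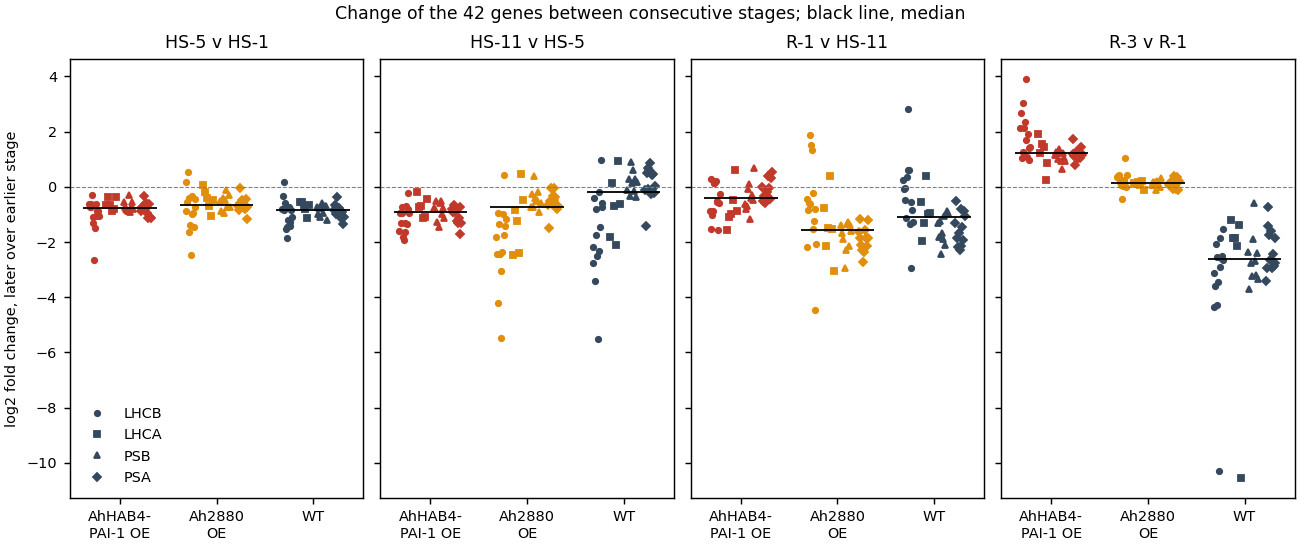
Log2 fold change of each of the 42 genes (y axis) between a stage and the stage before it, in one panel per step with L13, L12 and WT along the x axis, 1 point per gene with its shape set by family, and the median of the 42 as a black bar. The medians are below 0 in each line at HS-5, HS-11 and R-1, and at the R-3 step they are 1.24 in L13, 0.14 in L12 and -2.61 in WT.

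Most of these genes were lower after 22 h of HS and 1 day at 22 °C than after 11 h of HS. No leaves were sampled at the end of HS, so the further hours of heat and the first day of recovery cannot be told apart in this step. At R-1 against HS-11, 23 genes were lower and 3 higher in L13, with a median of -0.42 (all genes 0.01, with 24% lower and 24.9% higher), and 15 were called without replicate 2. In L12, 37 were lower and 4 higher, with a median of -1.55 (all genes -0.14, with 29.1% lower and 22.4% higher). In WT, 34 were lower and 4 higher, with a median of -1.1 (all genes 0.32, with 25.3% lower and 30.2% higher). On library totals WT had 20 lower and 11 higher with an all-gene median of 1.19, and its LHCB genes changed sides, with a median of -0.27 with TMM and 0.60 without. The 4 genes that were higher in WT were LHCB2.2, LHCB2.3, LHCB3 and LHCA4, all antenna genes. LHCB2.3 had 64.1 and 54.9 CPM at R-1 against 4.34 and 11 CPM (4 and 16 reads) at HS-11 in WT, a log2 fold change of 2.82 ± 0.29 (SE, adjusted p = 3.5622e-12). PSBQ1, one of a pair of genes for the extrinsic PsbQ protein of the oxygen-evolving complex, went the other way in WT, with 300 and 271 CPM at R-1 against 1453 and 1615 CPM at HS-11 (-2.43).

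The step to the third day of recovery parted the lines most. In L13, 41 genes were higher at R-3 than at R-1 and 0 lower, with a median of 1.24 (all genes 0.09, with 10.9% higher and 6.67% lower). The exception was LHCA5, a minor PSI antenna protein that binds the NDH complex, at 82.4 and 106 CPM against 93.4 and 68.8 CPM. In L12, 0 genes were called in either direction, as were 0% of all genes higher and 0% lower; DESeq2 also called 0, while 8 of the 42 and 1072 of all genes had an unadjusted p under 0.05. In WT, 37 were lower and 0 higher, with a median of -2.61 (all genes -1.39, with 7.87% lower and 3.98% higher). The antenna of PSII led in L13, with a median of 1.81 over 14 LHCB genes against 1.35 for LHCA, 1.1 for PSB and 1.18 for PSA. LHCB2.3 rose most in L13, with 1291 and 1609 CPM at R-3 against 103 and 92.7 CPM at R-1, a log2 fold change of 3.91 ± 0.15 (SE, adjusted p = 1.188e-27). That brought it close to its 1678 and 1685 CPM at HS-1. LHCB1.4 had 2561 and 3180 CPM at R-3 against 343 and 356 CPM at R-1 (3.03), above its 1709 and 1886 CPM at HS-1. In L12 the same copy had 163 and 184 CPM at R-3 and 123 and 137 CPM at R-1. The R-3 and R-1 libraries of L12 differed little more than replicates did: counts of 2 libraries over genes gave a chi-square per degree of freedom of 1.53 to 1.67 across these stages and of 1.14 and 1.51 between replicates.

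**Figure D3:**
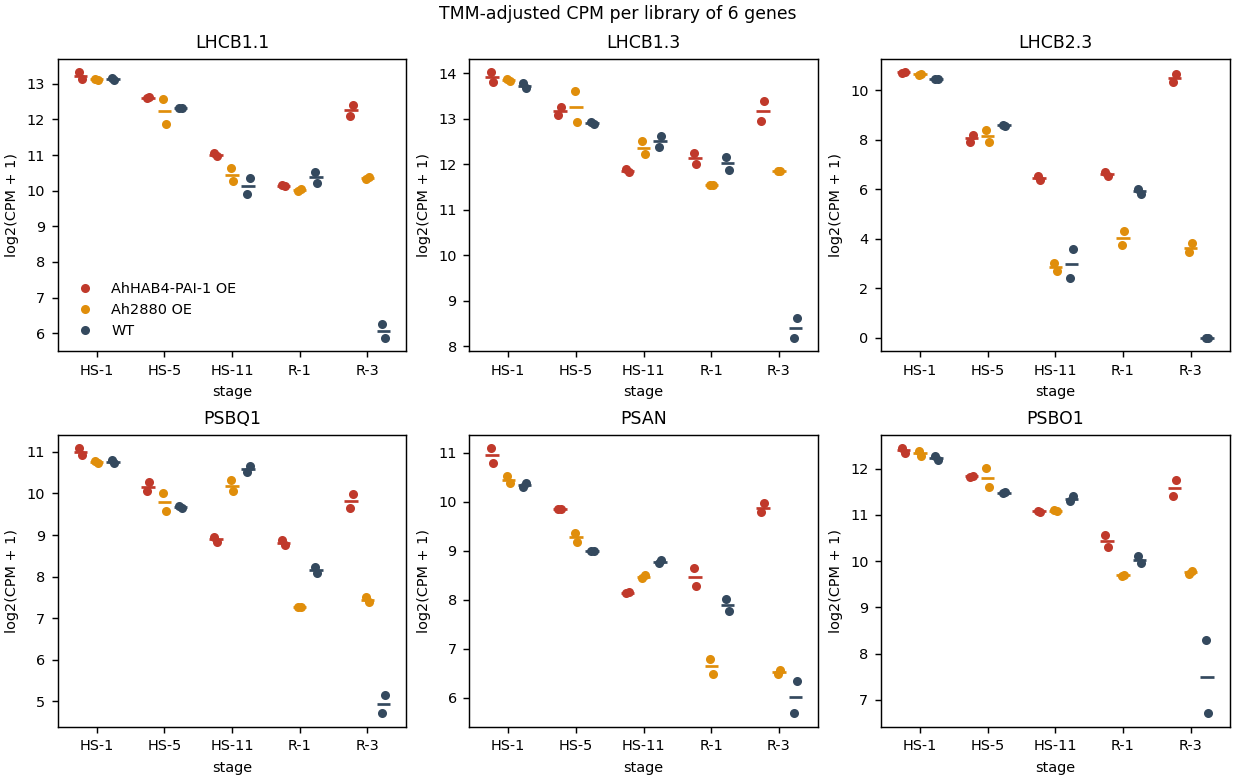
Level of LHCB1.1, LHCB1.3, LHCB2.3, PSBQ1, PSAN and PSBO1 in each library, as log2(CPM + 1) on the y axis, at the 5 stages (x axis) of L13, L12 and WT, with a short bar at each mean. WT points drop at R-3, where LHCB2.3 is at 0 in both libraries, while L13 points rise at R-3 and L12 points stay near their R-1 level.

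The OE lines differed little from WT in these genes after 1 h of HS. In L13, 3 of the 42 genes (PSBQ2, PSAK and PSAN) were higher than in WT at HS-1 and 0 lower, where 6.78% of all genes were called higher and 6.75% lower. Their median log2 fold change was 0.15 (all genes -0.05), and on library totals 2 were higher and 2 lower. PSAN, a lumenal PSI subunit at the plastocyanin docking side, had 2198 and 1780 CPM in L13 against 1262 and 1332 CPM in WT, a log2 fold change of 0.61 ± 0.12 (SE, adjusted p = 6.1465e-05). PSAK, which helps bind the LHCI belt, had 1622 and 1256 CPM in L13 against 1004 and 1018 CPM in WT (0.50 ± 0.12, adjusted p = 0.0016649). Groups did not overlap for either gene, but without replicate 1 of both groups 0 genes were called. In L12, 0 genes were called against WT, with a median of 0.03 (all genes -0.02), where 2.98% of all genes were called higher and 1.51% lower. Without adjustment 1 of the 42 and 4212 of all genes had a p under 0.05 there, and DESeq2 called 0 of the 42.

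At HS-5, L13 had 10 genes higher than WT and 2 lower, with a median of 0.28 (all genes -0.05, with 8.64% higher and 8.63% lower). On library totals 3 were higher and 4 lower, so this split depended on the scaling, and 5 were called without replicate 1 of both groups and 2 without replicate 2. PSB genes gave 4 of the higher calls, PSA genes 3, LHCB genes 2 and LHCA genes 1. PSAN again had the largest rise, with 924 and 926 CPM in L13 against 509 and 509 CPM in WT (0.86 ± 0.12, adjusted p = 6.9677e-08). Both lower genes were LHCII copies. LHCB1.4 had 990 and 1355 CPM in L13 against 2788 and 2674 CPM in WT (-1.22 ± 0.15, adjusted p = 4.6995e-09). LHCB2.3 had 240 and 292 CPM in L13 against 387 and 374 CPM in WT (-0.51 ± 0.13, adjusted p = 0.002736), a call that was lost without either replicate.

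In L12 at HS-5, 3 genes (LHCB4.1, LHCA1 and PSBW) were higher than in WT and 0 lower, with a median of 0.30 (all genes 0.04, with 12.1% higher and 9.93% lower). On library totals 2 were higher and 1 lower. LHCB4.1 codes for CP29, which links the LHCII trimers to the PSII core. It had 6299 and 4411 CPM in L12 against 3737 and 3705 CPM in WT (0.52 ± 0.13, adjusted p = 0.0009308). PSBW, a small PSII subunit at the core edge, had 2007 and 1418 CPM in L12 against 1266 and 1268 CPM in WT (0.43 ± 0.12, adjusted p = 0.003122). Replicate 1 of L12 was the higher one for both genes, and both calls were lost without replicate 1. Without replicate 1 of both groups 0 genes were higher and 1 lower (median 0.01), and without replicate 2, 15 were higher and 0 lower (median 0.50), so the direction rested on replicate 1.

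After 11 h of HS the 42 genes split by family in L13. Relative to WT, 11 were higher and 21 lower, with a median log2 fold change of -0.44 while the median of all genes was 0.30, and 29.5% of all genes were called higher and 23.6% lower. LHCB genes were 8 higher and 2 lower (median 0.43) and LHCA genes 2 higher and 2 lower (0.22), whereas PSB genes were 0 higher and 6 lower (-0.71) and PSA genes 1 higher and 11 lower (-1.0). The split into directions depended on the scaling. On library totals, which moved the all-gene median to 1.03, 21 genes were higher and 8 lower, with family medians of 1.15 for LHCB, 0.94 for LHCA, 0.02 for PSB and -0.27 for PSA. The order of the families was the same on both scales, whereas the sign of the PSB median was not. Of the 32 genes called with TMM, 19 were called in the same direction on library totals and 0 in the opposite one, and 23 kept their sign. The other 9 (LHCB1.3, LHCB4.3, LHCA2, PSBO2, PSBR, PSAD1, PSAF, PSAH2 and PSAN), all lower with TMM, lay between 0.00 and 0.19 on library totals and were not called.

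Shares among the 42 genes do not depend on the library scaling, and they showed the same split. LHCB genes held 48.8 and 48.6% of the counts of the 42 genes in L13 at HS-11, 42 and 40.5% in L12, and 37.0 and 38.5% in WT. LHCA genes held 15.7 and 15.9% in L13, 11.2 and 12.0% in L12, and 12.1 and 11.9% in WT. PSB genes held 19.0 and 19.4% in L13, 23.7 and 25.0% in L12, and 24.9 and 24% in WT. PSA genes held 16.5 and 16.1% in L13, 23.2 and 22.4% in L12, and 26.0 and 25.6% in WT. Antenna shares were thus highest and photosystem subunit shares lowest in L13, with no overlap between L13 and the other lines in any family. The 3 mesophyll markers summed to 5905 and 5914 CPM in L13 at HS-11, 9293 and 8744 CPM in L12, and 10353 and 11228 CPM in WT, in the same order as the PSA shares, and their part in the split was not tested.

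LHCB2.3 had the largest rise and PSBQ1 the deepest fall of L13 against WT at HS-11. LHCB2.3 had 90.8 and 82.4 CPM in L13 against 4.34 and 11 CPM in WT, a log2 fold change of 3.37 ± 0.27 (SE, adjusted p = 1.7165e-15). L12 had 7.11 and 5.44 CPM, within the WT range, so L13 alone stood apart. These levels rest on few reads, 4 and 16 in WT and 13 and 7 in L12. PSBQ1 had 494 and 456 CPM in L13 against 1453 and 1615 CPM in WT (-1.69 ± 0.12, adjusted p = 2.6102e-17), with 1270 and 1069 CPM in L12. LHCA4, which pairs with LHCA1 in the red-shifted part of the PSI antenna, had 1467 and 1460 CPM in L13 against 605 and 644 CPM in WT (1.23 ± 0.13, adjusted p = 3.3309e-12). LHCA1 had 1193 and 1138 CPM in L13 against 410 and 508 CPM in WT (1.34). Both genes of the pair were higher in L13 without overlap, whereas LHCA5 (-1.27) was lower, LHCA2 was lower with TMM (-0.54) and not on library totals (0.19), and LHCA3 (0.05) and LHCA6 (0.38) were not called. PSAL, which with PSAH and PSAO forms the site where LHCII docks on PSI in state transitions, had 1491 and 1417 CPM in L13 against 3022 and 3286 CPM in WT (-1.12 ± 0.14, adjusted p = 1.3438e-09). PSAH1 (-1.34) of the same site was also lower, and PSAH2 (-0.65) and PSAO (-1.01) were lower with TMM but not called on library totals (0.08 and -0.28). The PSAH1 value may include reads of the overlapping AT3G16130. PSAG, which binds the LHCI belt, fell most among PSA genes (-1.52). PSAD2, one of a pair for the ferredoxin-docking subunit, was the only PSA gene called higher (0.47), while its paralog PSAD1 was lower with TMM (-0.64) and not called on library totals (0.09).

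Neighboring copies of LHCB1 were called in opposite directions in L13 against WT at HS-11 with TMM scaling, but not on library totals. LHCB1.1 had 2118 and 1999 CPM in L13 against 951 and 1300 CPM in WT (0.86 ± 0.15, adjusted p = 1.2468e-06), and LHCB1.2 had 2307 and 2270 CPM against 762 and 993 CPM (1.38 ± 0.14, adjusted p = 6.1591e-12). LHCB1.3 had 3795 and 3602 CPM in L13 against 5296 and 6308 CPM in WT (-0.65 ± 0.15, adjusted p = 0.00012578). On library totals LHCB1.1 (1.59) and LHCB1.2 (2.11) were higher, whereas LHCB1.3 was not called (0.08, adjusted p = 0.55922), with 4523 and 4348 CPM without TMM in L13 against 3925 and 4482 CPM in WT. These 3 copies lie side by side on chromosome 1, and the coding sequences of LHCB1.1 and LHCB1.3 are identical at 96.1% of bases with a longest identical run of 119 bases. Reads from such stretches fit either copy and were not counted if only unique matches were kept, so the level of each copy is uncertain.

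To show the start regions of genes that differed in their L13 response at HS-11, the promoters of LHCB1.1 and LHCB1.3 (neighbors of which LHCB1.1 was higher on both scales and LHCB1.3 lower with TMM only), LHCB2.3 (largest rise) and PSBQ1 (deepest fall) follow, chosen after their values were seen. They run from 250 bases before to 50 bases after the annotated start in RefSeq's TAIR10.1 assembly, at chr1:10475920-10476219 (minus strand), chr1:10477635-10477934 (plus), chr3:10255656-10255955 (plus) and chr4:11334102-11334401 (plus). Capitals mark matches to the G-box CACGTG, the I-box GATAAG and the form AAAAATCT of the CCA1-binding site, each searched on both strands with no overlap between the motifs found here. The form AACAATCT of the CCA1-binding site was not searched.
LHCB1.1: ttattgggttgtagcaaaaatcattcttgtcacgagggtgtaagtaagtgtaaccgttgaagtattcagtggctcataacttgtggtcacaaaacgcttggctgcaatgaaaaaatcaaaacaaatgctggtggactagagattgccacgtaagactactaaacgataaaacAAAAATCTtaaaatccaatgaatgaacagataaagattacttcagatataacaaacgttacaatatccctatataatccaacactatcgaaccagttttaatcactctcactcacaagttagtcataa
LHCB1.3: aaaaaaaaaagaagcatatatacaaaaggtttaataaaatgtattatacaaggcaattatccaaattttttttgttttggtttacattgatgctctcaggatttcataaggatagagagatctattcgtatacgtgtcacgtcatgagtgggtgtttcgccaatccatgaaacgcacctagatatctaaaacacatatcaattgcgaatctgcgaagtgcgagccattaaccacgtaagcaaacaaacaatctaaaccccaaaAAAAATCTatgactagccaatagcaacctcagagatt
LHCB2.3: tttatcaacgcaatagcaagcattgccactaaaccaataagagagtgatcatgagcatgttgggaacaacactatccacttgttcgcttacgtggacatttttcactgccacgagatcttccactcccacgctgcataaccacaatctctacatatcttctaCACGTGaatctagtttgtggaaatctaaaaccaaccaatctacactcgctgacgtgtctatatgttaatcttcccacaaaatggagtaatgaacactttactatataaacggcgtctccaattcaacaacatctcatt
PSBQ1: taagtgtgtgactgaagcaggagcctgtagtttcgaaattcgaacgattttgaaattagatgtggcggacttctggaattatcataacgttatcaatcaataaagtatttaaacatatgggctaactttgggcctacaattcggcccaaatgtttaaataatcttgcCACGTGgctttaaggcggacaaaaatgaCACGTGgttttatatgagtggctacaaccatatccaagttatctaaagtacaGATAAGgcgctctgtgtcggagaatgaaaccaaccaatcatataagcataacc
LHCB1.1 and LHCB1.3 each had 1 AAAAATCT match, LHCB2.3 had 1 G-box, and PSBQ1 had 2 G-boxes and 1 I-box. The match in LHCB1.3 lies after the annotated start, and an unmarked AACAATCT stands before it. A match here is only a run of letters. Over the 42 promoters, 14 (33.3%) held a G-box, against 7.68% of 27443 promoters of the same length, 17 (40.5%) an I-box, against 14.6%, and 6 (14.3%) the form AAAAATCT, against 7.88%. With calls from TMM scaling, a G-box stood in 2 of the 11 genes that were higher in L13 at HS-11, 8 of the 21 lower and 4 of the 10 not called. An I-box stood in 5, 10 and 2 of these genes, and the form AAAAATCT in 3, 3 and 0.

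**Figure D4:**
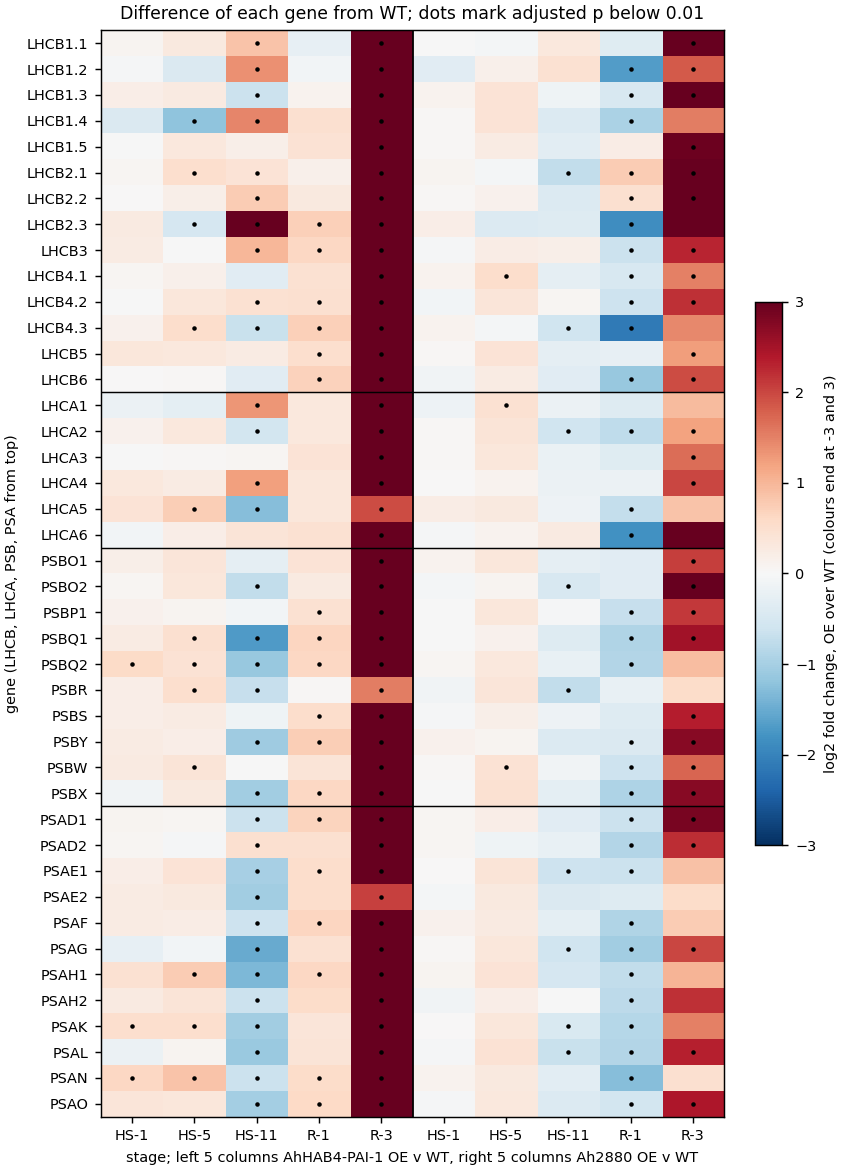
Log2 fold change against WT of each of the 42 genes (rows, by family) in L13 and L12 at the 5 stages (columns), on a color scale that ends at 3 in either direction, with a dot where the adjusted p is under 0.01. The L13 column at HS-11 is mostly above 0 for LHCB rows and below 0 for PSA rows with TMM scaling, the L12 column at R-1 is mostly below 0, and the R-3 columns of both lines have no gene called lower.

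In L12 at HS-11, 0 genes were higher than in WT and 9 lower, with a median of -0.30 (all genes 0.03, with 3.88% higher and 4.97% lower), but on library totals 4 were higher and 3 lower with an all-gene median of 0.29. The 9 were LHCB2.1, LHCB4.3, LHCA2, PSBO2, PSBR, PSAE1, PSAG, PSAK and PSAL, and 1 was called without replicate 2 of both groups. PSBR, a PSII subunit that helps dock the oxygen-evolving complex, had 535 and 494 CPM in L12 against 798 and 926 CPM in WT (-0.75 ± 0.14, adjusted p = 0.00014787). PSAL had 2186 and 1766 CPM in L12 against 3022 and 3286 CPM in WT (-0.67 ± 0.14, adjusted p = 0.00044314). Neither gene overlapped between the lines. Both calls were lost without replicate 2.

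One day after HS the OE lines lay on opposite sides of WT. In L13, 18 genes were higher than in WT and 0 lower, with a median of 0.47 (all genes 0.02, with 4.66% higher and 2.45% lower). LHCB, PSB and PSA genes gave 6 of these calls each, and LHCA genes gave 0. Without replicate 1 of both groups 3 were called, and without replicate 2, 4. PSBY, a small PSII core protein, had 847 and 796 CPM in L13 against 496 and 491 CPM in WT (0.73 ± 0.12, adjusted p = 1.1798e-05). PSBP1, an extrinsic protein of the oxygen-evolving complex, had 975 and 809 CPM in L13 against 701 and 599 CPM in WT (0.45 ± 0.13, adjusted p = 0.0097034). The lines did not overlap for either gene, and the PSBP1 call was lost without either replicate. All 3 mesophyll markers were also called higher in L13, with sums of 5321 and 4064 CPM against 3098 and 2830 CPM in WT. Of the 3 guard cell markers 1 was called higher and 0 lower, and 0 phloem, epidermis or flower markers were called. Their part in the R-1 difference of L13 was not tested.

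In L12 at R-1, 29 genes were lower than in WT and 2 higher, with a median of -0.65 (all genes -0.27, with 18% lower and 11.1% higher). Lower calls were 9 of 14 LHCB, 3 of 6 LHCA, 6 of 10 PSB and 11 of 12 PSA genes. Without replicate 1 of both groups 9 were called, and without replicate 2, 14. LHCB4.3, an atypical CP29 form, fell most, with 10.1 and 6.57 CPM (9 and 9 reads) in L12 against 40.2 and 29.7 CPM in WT (-2.11 ± 0.30, adjusted p = 7.6868e-08). LHCB2.3 (-1.86), LHCA6 (-1.82), LHCB1.2 (-1.67) and PSAN (-1.28) followed. PSAL had 458 and 446 CPM in L12 against 891 and 759 CPM in WT (-0.87 ± 0.15, adjusted p = 4.6349e-06), a call lost without replicate 1. The 2 higher genes were the near-identical copies LHCB2.1 and LHCB2.2. LHCB2.1 had 1178 and 1231 CPM in L12 against 744 and 672 CPM in WT (0.77 ± 0.13, adjusted p = 5.3674e-06). LHCB2.2 had 642 and 637 CPM in L12 against 470 and 443 CPM in WT (0.48 ± 0.13, adjusted p = 0.0030902), which was lost without replicate 2. Mesophyll markers overlapped between the lines at R-1, with sums of 2909 and 2689 CPM in L12 and 3098 and 2830 CPM in WT. Guard cell markers (KAT1, MYB60 and GC1) summed to 1.13 and 2.92 CPM in L12 against 8.97 and 12.2 CPM in WT at R-1, and epidermis markers (ATML1 and PDF1) to 94.5 and 82.5 CPM against 135.8 and 130.8 CPM. Phloem markers (SUC2 and APL) summed to 70.9 and 63.5 CPM in L12 against 102.4 and 114.8 CPM in WT, and flower markers (AG, AP3 and PI) to 41.6 and 32.9 CPM against 12.5 and 12.4 CPM. In each of the mesophyll, guard cell, phloem and epidermis lists 1 gene was called lower and 0 higher, and in the flower list 1 was called in each direction. Their part in the R-1 difference was not tested. The 2 LHCB2 copies share 92.9% of coding bases, so how counts divide between them is uncertain.

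At R-3 every one of the 42 genes was called higher in L13 than in WT, and 27 in L12. In L13, 42 were higher and 0 lower, with a median of 4.35 (all genes 1.51, with 11.7% higher and 4.5% lower), or 4.09 with the 7 genes whose WT libraries held at most 3 counts each set to 3 counts. In L12, 27 were higher and 0 lower, with a median of 2.04 (all genes 1.03, with 4.1% higher and 1.11% lower), or 1.90 with those genes at 3 counts. The higher calls in L12 were 11 of 14 LHCB, 3 of 6 LHCA, 8 of 10 PSB and 5 of 12 PSA genes. On library totals 39 genes were higher in L13 and 25 in L12, with 0 lower in either. In the WT libraries the 42 genes held between 0 and 37 counts each, so the folds rest on few WT reads.

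The member of each family with the highest mean level shows the range at R-3. LHCB1.5 had 6697 and 9219 CPM in L13, 3280 and 3170 CPM in L12, and 415 and 426 CPM in WT, where 33 and 37 reads were counted. Its log2 fold change against WT was 4.24 ± 0.21 in L13 (adjusted p = 1.2228e-23) and 2.94 ± 0.22 in L12 (adjusted p = 1.2796e-15). The 3 lines were in the same order without overlap for the other families as well. LHCA3 had 3298 and 4025 CPM in L13, 837 and 842 CPM in L12, and 277 and 253 CPM (22 and 22 reads) in WT. Its log2 fold changes were 3.79 ± 0.21 in L13 (adjusted p = 1.2668e-21) and 1.67 ± 0.23 in L12 (adjusted p = 3.1329e-07). PSBO1, the main form of the manganese-stabilizing protein, had 2728 and 3482 CPM in L13, 849 and 878 CPM in L12, and 314 and 104 CPM in WT. It differed from WT by 3.92 ± 0.23 in L13 (adjusted p = 2.5937e-20) and by 2.08 ± 0.26 in L12 (adjusted p = 1.9045e-08), although its WT replicates, with 25 and 9 reads, were far apart. PSAL had 2188 and 2977 CPM in L13, 574 and 571 CPM in L12, and 101 and 127 CPM, from 8 and 11 reads, in WT (4.5 ± 0.29, adjusted p = 7.2015e-19, and 2.33 ± 0.34, adjusted p = 1.0183e-06).

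Genes at or near 0 in WT at R-3 allow only bounds or wide ratios. LHCB2.3 had 1291 and 1609 CPM in L13 and 9.9 and 13.4 CPM in L12, and 0 reads in both WT libraries. Against a floor of 3 counts in each WT library (36.1 CPM) it was at least 40.1-fold higher in L13, and no fold is given for L12, which lay under that floor. LHCA6, the partner of LHCA5 at the NDH complex, also had 0 reads in both WT libraries, and 162 and 191 CPM in L13, at least 4.89-fold higher, with 16.8 and 19.4 CPM in L12. For genes with few WT reads, ratios from summed counts with exact 95% intervals cover counting error only. LHCB4.3, with 1 and 0 WT reads, had a ratio of 18.6 (3.33 to 735) in L13 and of 2.75 (0.475 to 110.5) in L12. PSBQ1, with 2 and 3 WT reads, had 806 and 1012 CPM in L13 and 181 and 166 CPM in L12, ratios of 29.0 (12.4 to 89.4) and 5.71 (2.43 to 17.6). LHCA5, with 3 and 1 WT reads, had ratios of 3.74 (1.46 to 13.8) in L13 and 1.81 (0.694 to 6.73) in L12. PSAH2 and PSAO had ratios of 24 (8.22 to 116.6) and 22.2 (9.5 to 68.3) in L13. In L12 the interval reached below 1 for 5 genes, LHCB4.3, LHCA5, PSBR (0.988 to 2.25), PSAE2 (0.776 to 3.3) and PSAN (0.768 to 2.82).

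Among the 27 genes called in L12 against WT at R-3, LHCB2.1 had the highest log2 fold change and LHCA2 the lowest, and 9 genes that were not called lay below LHCA2, down to PSAN at 0.47. LHCB2.1 had 1380 and 1340 CPM in L12 against 62.9 and 11.5 CPM in WT, from 5 and 1 reads (5.23 ± 0.37, adjusted p = 2.9218e-16). Its ratio from summed counts was 37.6 (17.2 to 102.4). LHCA2 had 526 and 497 CPM in L12 against 176 and 265 CPM in WT, from 14 and 23 reads (1.2 ± 0.27, adjusted p = 0.0013958), a call lost without replicate 1 and on library totals. In L13 the smallest rise was that of PSBR, with 464 and 448 CPM against 189 and 127 CPM in WT, from 15 and 11 reads (1.54 ± 0.31, adjusted p = 0.00010483). That call was lost without replicate 2 and on library totals. Epidermis and guard cell markers were at 0 in both WT R-3 libraries, where 1 read stands for 12.6 or 11.5 CPM. Their sums were 228 and 298 CPM (epidermis) and 33.0 and 37.6 CPM (guard cell) in L13, and 64.8 and 64.8 CPM and 3.81 and 2.59 CPM in L12. Of the 3 guard cell markers 0 were called against WT at R-3 in either line. Of the 2 epidermis markers 2 were called higher in L13 and 0 in L12. Flower markers ran the other way, at 3.97 and 6.72 CPM in L13, 32.8 and 28.9 CPM in L12, and 37.7 and 57.5 CPM in WT, and 1 of the 3 was called lower in L13 than in WT and 1 lower than in L12. The part of leaf makeup in these folds was not tested.

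The comparison of the OE lines with each other takes no level from WT, but the small WT R-3 libraries enter its scaling and its estimate of the spread. At R-3, 42 genes were higher in L13 than in L12 and 0 lower, with a median of 2.22 (all genes 0.32, with 29.3% higher and 14.2% lower), and the same 42 and 0 were obtained on library totals (median 1.94) and without both WT R-3 libraries (median 1.87, all genes -0.02). Family medians were close, at 2.47 for LHCB, 2.16 for LHCA, 2.13 for PSB and 2.31 for PSA. Single genes ranged from PSBR at 0.98 ± 0.15 (adjusted p = 1.3205e-07) to LHCB2.3 at 6.90 ± 0.20 (adjusted p = 3.5856e-33, with 13 and 31 reads in L12). LHCB1.4 followed, with 2561 and 3180 CPM in L13 against 163 and 184 CPM in L12 (4.04 ± 0.17, adjusted p = 1.3965e-26).

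At R-1, 37 genes were already higher in L13 than in L12 and 1 lower, with a median of 1.16 (all genes 0.29, with 20.7% higher and 11.8% lower), and 35 and 1 without both WT R-3 libraries (median 0.96). The lower gene was LHCB2.1, with 834 and 751 CPM in L13 against 1178 and 1231 CPM in L12 (-0.61 ± 0.13, adjusted p = 0.00020269). PSA genes were 12 of 12 higher (median 1.33), LHCA 6 of 6 (0.90), PSB 9 of 10 (1.08) and LHCB 10 of 14 (1.02). PSAN had 399 and 309 CPM in L13 against 110 and 89.1 CPM in L12 (1.83 ± 0.15, adjusted p = 3.1245e-15). At HS-11, 13 genes were higher and 13 lower, with a median of -0.03 (all genes 0.21, with 25.9% higher and 21.7% lower), and on library totals 24 were higher and 5 lower with an all-gene median of 0.68. Without replicate 1 of both groups 17 were called, and without replicate 2, 16. LHCB genes were 10 higher and 1 lower there, PSA genes 1 higher and 7 lower, and on library totals 13 and 0, and 1 and 2. At HS-5, 3 were higher and 3 lower, with a median of 0.02 (all genes -0.09, with 12.1% higher and 14.4% lower), and 3 and 9 on library totals. The direction there turned with the replicate left out, from 10 higher and 1 lower (median 0.30) without replicate 1 of both groups to 0 higher and 11 lower (median -0.29) without replicate 2. At HS-1, 3 (PSBQ2, PSAK and PSAN) were higher and 0 lower, with a median of 0.12 (all genes -0.05, with 8.29% higher and 8.78% lower), 0 and 4 on library totals, and 0 or 1 without replicate 1 or 2.

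Whether a stage step differed between an OE line and WT was tested as an interaction. For the step from R-1 to R-3, 40 of the 42 genes changed more upward in L13 than in WT and 0 the other way, where 12.2% of all genes were called, and 37 did so in L12, where 10.5% were called. For HS-11 to R-1, 26 were more upward and 6 more downward in L13 than in WT (44.1% of all genes called), and 14 and 16 on library totals. In L12 that step had 2 more upward (LHCB2.1 and LHCB2.2) and 10 more downward (18.3% called), 2 and 24 on library totals, and 3 and 7 were called without replicate 1 and without replicate 2. For HS-5 to HS-11, 7 antenna genes were more upward in L13 and 22 genes more downward (47.5% called), with 20 and 7 on library totals, so most directions there depended on the scaling. The 7 were LHCB1.2, LHCB1.4, LHCB2.2, LHCB2.3, LHCB3, LHCA1 and LHCA4. In L12, 0 were more upward and 16 more downward at that step (13.6% called), 2 and 4 on library totals, and 6 and 7 were called without replicate 1 and without replicate 2. For HS-1 to HS-5, LHCB1.4 (-0.79) and LHCB2.3 (-0.79) were more downward in L13 (7.5% called), and 0 genes were called without either replicate. In L12, 0 genes were called at that first step (5.21% of all genes called), with 12 of the 42 and 4581 of all genes at an unadjusted p under 0.05, and DESeq2 called 0.

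Among the 5 LHCB1 copies, which code for nearly the same protein, the share of each copy differed by line and stage. At HS-11, LHCB1.3 held 25.0 and 24.7% of LHCB1 counts in L13, 42.4 and 42.1% in L12, and 43.3 and 42.9% in WT. LHCB1.2 held 15.2 and 15.6% in L13, 9.87 and 9.56% in L12, and 6.23 and 6.75% in WT. LHCB1.4 held 5.10 and 4.52% in L13, 1.6 and 1.48% in L12, and 1.70 and 2.06% in WT. L13 stood apart from L12 and WT for these 3 copies. At HS-1 LHCB1.3 had held 32.8 and 31.0% in L13, 31.5 and 31.4% in L12, and 29.2 and 28.9% in WT, so its share lay below the HS-1 values at HS-11 in L13 and above them in L12 and WT. At R-3, LHCB1.4 held 9.83 and 9.32% in L13 against 1.86 and 2.11% in L12, and LHCB1.2 held 17.3 and 16.4% against 3.78 and 4.12%. WT R-3 had 76 and 88 LHCB1 reads in all, too few to place its shares. Because the copies share long identical runs, these shares depend on how reads that fit several copies were treated.

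**Figure D5:**
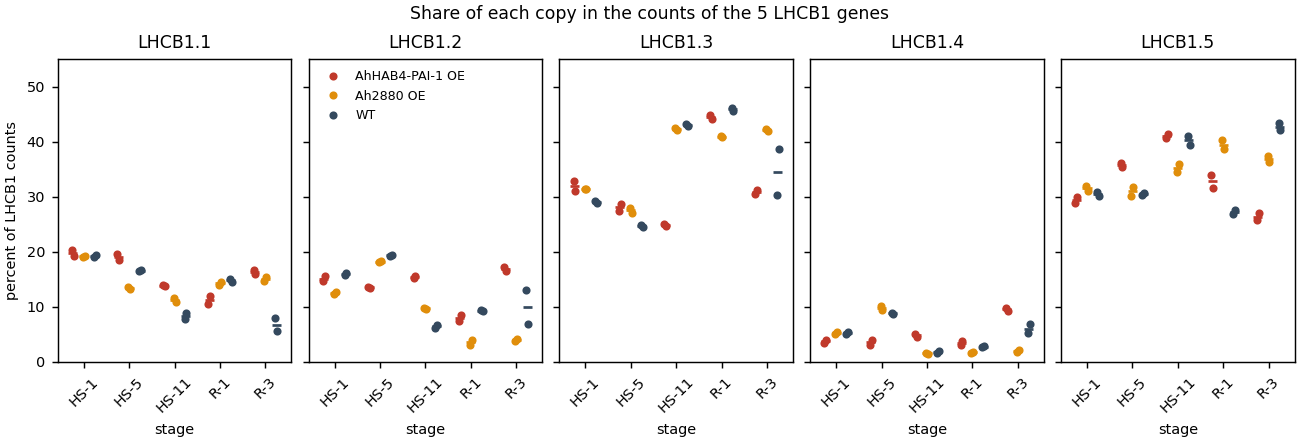
Percent of all LHCB1 counts held by each of the 5 LHCB1 copies (one panel each, y axis in percent) at the 5 stages (x axis), with 1 point per library and a short bar at each mean for L13, L12 and WT. At HS-11 LHCB1.3 lies at 25.0 and 24.7% in L13 and at 43.3 and 42.9% in WT, and at R-3 LHCB1.4 lies at 9.83 and 9.32% in L13 and at 1.86 and 2.11% in L12.

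Shares differed within other groups of paralogs as well. LHCB2.3 held 6.70 and 6.43% of LHCB2 counts in L13 at HS-11, 1.24 and 0.996% in L12, and 0.543 and 1.21% in WT. At R-3 it held 19.3 and 18.1% in L13 against 0.479 and 0.666% in L12, and LHCB2.1 held 44.0 and 44.7% in L13 against 66.7 and 66.7% in L12. PSAD2 held 35.6 and 36.2% of PSAD counts in L13 at HS-11, 22.3 and 21.7% in L12, and 18.8 and 22.0% in WT, so L13 stood apart while L12 and WT overlapped. PSBQ1 held 52.4 and 50.4% of PSBQ counts in L13, 60.4 and 55.6% in L12, and 59.9 and 61.8% in WT. PSBO2, the minor manganese-stabilizing form, held 31.7 and 31.0% of PSBO counts in L13, 35.8 and 34.2% in L12, and 37.6 and 39.2% in WT. PSAH2 held 35.1 and 35.0% of PSAH counts in L13, 32.6 and 30.6% in L12, and 25.0 and 25.1% in WT. These PSAH counts may include reads of AT3G16130, which overlaps PSAH1. PSAE2 held 30.1 and 28.7% of PSAE counts in L13, 32.7 and 32.7% in L12, and 29.2 and 30.7% in WT, where L13 and WT overlapped.

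The rest of the pathway was read from gene lists for chlorophyll synthesis (16 genes), electron carriers and ATP synthase (10), LHC-like proteins (8), assembly and repair (12) and regulators (7). With TMM scaling, L13 against WT at HS-11 had 4 higher and 7 lower of the 16, 0 and 9 of the 10, 1 and 5 of the 8, 5 and 2 of the 12, and 2 and 0 of the 7, where 29.5% of all genes were called higher and 23.6% lower. On library totals (50.8% of all genes higher and 11.9% lower) the same lists had 9 and 3, 3 and 3, 2 and 3, 10 and 2, and 6 and 0, so the split of these lists depended on the scaling. FD1, a leaf ferredoxin, fell by 2.22 and PETC, the Rieske protein of cytochrome b6f, by 1.33 on the log2 scale, like most PSA genes. CHLP, which reduces the geranylgeranyl chain for chlorophyll, was higher (1.25), as were GUN1, a plastid signaling protein (1.69), and SIG1, a plastid sigma factor (1.13). ELIP1, an early light-induced protein (-2.31), and PSB28, a PSII assembly factor (-2.36), were lower. Median log2 fold changes of these lists ran from -0.85 (LHC-like proteins) to 0.31 (regulators), against 0.30 for all genes.

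For L12 against WT at R-1, 2 were higher and 9 lower of the 16 chlorophyll genes, 0 and 8 of the 10 electron carriers, 0 and 2 of the 8 LHC-like proteins, 0 and 3 of the 12 assembly factors and 1 and 2 of the 7 regulators, where 11.1% of all genes were called higher and 18% lower. The last 3 lists lay near that share, although 5 LHC-like genes were lower on library totals. FD2, the main leaf ferredoxin, fell by 2.07 on the log2 scale, DVR, the divinyl reductase of chlorophyll synthesis, by 2.61, and GLK1, a transcription factor known to activate photosynthesis genes, by 2.07, while the sigma factor SIG5 was higher (1.00). At R-3, L13 against WT had 14 higher and 1 lower (HEMA2, -1.86), 10 and 0, 5 and 0, 11 and 0, and 7 and 0 of these lists. L12 had 9, 6, 4, 10 and 3 higher and 0 lower, where 11.7% of all genes were called higher in L13 and 4.1% in L12. On library totals 12, 10, 3, 11 and 4 were higher in L13, with 1 chlorophyll gene lower, and 8, 5, 3, 7 and 3 were higher in L12. Of all genes, 5.91% were called higher there in L13 and 2.35% in L12. The small WT R-3 libraries enter all of these values. In L13 against L12 at R-3, 15 chlorophyll genes were higher and 1 lower, 10 electron carriers higher, 5 LHC-like genes higher and 2 lower, 9 assembly factors higher and 1 lower, and 5 regulators higher and 1 lower, where 29.3% of all genes were called higher and 14.2% lower. GLK1 was higher in L13 than in L12 at R-1 (2.68) and at R-3 (3.23), FD2 by 2.61 and 3.27, and SIG5 was lower (-1.66 and -0.63). ELIP1 (-0.99) and ELIP2 (-1.31) were the lower LHC-like genes at R-3. Of the 8 plastid-encoded core genes 7 were tested, from libraries selected for poly(A) RNA. At HS-11, 0 were higher and 2 lower in L13 than in WT, and 0 and 1 on library totals. At R-3, 0 were called against WT in either line, although median log2 fold changes were 8.72 in L13 and 7.36 in L12. With so few counts in the WT R-3 libraries, the lack of calls there does not show equal levels.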

How the data were processed

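Leaf mRNA was sequenced on an Illumina NovaSeq 6000 after oligo(dT) enrichment, random fragmentation and PCR. The authors aligned reads to TAIR10 with Bowtie2, removed duplicates with Picard and counted uniquely mapped reads per gene with Subread, and deposited these counts without normalization. Removal of duplicates can compress the counts of short, highly expressed genes, Bowtie2 does not open introns, and unique mapping leaves near-identical LHCB1 and LHCB2 copies uncertain. The annotation release and the strand setting are not given in the sources used here. Counts from the transgenes were not analysed here.

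Line, stage and replicate were taken from the labels. In R 4.3.3, edgeR 4.0.16 (limma 3.58.1) kept 19761 genes by filterByExpr with the 15 groups, computed TMM factors and dispersions (common dispersion 0.00594), and fitted a quasi-likelihood model (legacy FALSE) with 1 mean per group and no replicate block. P-values were adjusted by Benjamini-Hochberg over all genes, with calls at an adjusted p under 0.01. SE was obtained from each log2 fold change and its F statistic. The pipeline was tested on simulated data. DESeq2 1.42.0 and other scalings, filters and subsets served as alternatives. P-values measure the spread between pooled samples of 10 plants, with 2 per group.

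Full statistics are given for the member of each family with the highest mean CPM, for the highest and lowest log2 fold change of called members in each comparison with WT (without overlap, and with 50 or more mean counts in the higher group), for up to 3 members called against the main direction, and for the paralogs. The members and lists were chosen with earlier results of these data known. Promoters and overlaps come from RefSeq's TAIR10.1 tables, in which all 42 members were matched, and were not used for counting. Python 3.11.15 and pandas 2.3.3 made tables and figures.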

Additional observations from a re-analysis of the deposited data

Results flagged for a closer look

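Steps between stages differed between an OE line and WT by an interaction term in the edgeR quasi-likelihood fit (adjusted p under 0.01). For L13 against WT, the step differed for 2 of the 42 genes from HS-1 to HS-5, 29 from HS-5 to HS-11, 32 from HS-11 to R-1 and 40 from R-1 to R-3. For L12 against WT, it differed for 16 genes from HS-5 to HS-11, 12 from HS-11 to R-1 and 37 from R-1 to R-3. WT R-3 enters both counts of the last step. The TMM factors of the WT HS-11 libraries differed from those of L13, and on library totals the L13 counts were 20 more upward and 7 more downward from HS-5 to HS-11, and 14 and 16 from HS-11 to R-1. Groups of 2 libraries do not allow a search for an outlying library.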

How the results depend on the processing

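Of the 35 comparisons, the number of genes called stayed within 1.5 times under the legacy fit (35), TMM computed without the 42 genes and the pathway lists (35), DESeq2's Wald test (33), DESeq2's size factors (33), no filter (28), library totals (27), a fit on only the groups compared (24), and without replicate 1 (23) or 2 (22). No call turned its direction among the genes with full statistics against WT that were chosen by level, log2 fold change or direction. The added paralogs were not part of that check. Of them, LHCB1.3 in L13 v WT at HS-11 changed sign on library totals, where it was not called. Same-numbered replicates did not deviate together (correlations of -0.086 to 0.118), and the replicate block kept all 35 counts within 1.5 times, with 42 genes called for L13 v WT at R-3. Without both WT R-3 libraries 30 of 30 counts stayed within 1.5 times, and the 5 comparisons that use them gave no value.

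DESeq2's size factors gave 5 for L13 v WT and 5 for L13 v L12 at HS-1. Library totals gave 7 for L13 v WT and 12 for L13 v L12 at HS-5, 10 in L13, 17 in L12 and 18 in WT for HS-5 v HS-1, and 1, 6 and 26 for the first 3 steps of L12 minus WT. DESeq2's test gave 10 for L13 v WT at R-1 and 1 for HS-5 v HS-1 of L13 minus WT. No filter gave 5 for L13 v WT, 1 for L12 v WT and 6 for L13 v L12 at HS-1, 12 for L12 v WT and 12 for L13 v L12 at HS-5, 14 for L12 v WT at HS-11 and 2 for HS-5 v HS-1 of L12 minus WT. Only the groups compared gave, for L13 v WT, 7 (HS-1), 26 (HS-5) and 8 (R-1), for L12 v WT 2 (HS-1), 0 (HS-5), 17 (HS-11) and 14 (R-3), for L13 v L12 11 (HS-1) and 3 (HS-5), and for HS-11 v HS-5 22 in L12 and 8 in L12 minus WT. The cause of these moves was not tested.

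Leaving out replicate 1 or 2 of the groups compared leaves 1 library per group, which is assumed to vary like the other groups. Calls then ranged, for L13 v WT, from 0 to 3 (HS-1), 2 to 5 (HS-5) and 3 to 4 (R-1), for L12 v WT from 1 to 15 (HS-5), 1 to 8 (HS-11) and 9 to 14 (R-1), and for L13 v L12 from 0 to 1 (HS-1), 11 to 11 (HS-5, of which 10 were higher without replicate 1 and 11 lower without replicate 2) and 16 to 17 (HS-11). They ranged from 19 to 37 (L13) and 18 to 37 (L12) for HS-5 v HS-1, 15 to 20 for R-1 v HS-11 in L13, 0 to 0 for HS-5 v HS-1 of L13 minus WT, and 6 to 7 and 3 to 7 for HS-11 v HS-5 and R-1 v HS-11 of L12 minus WT. Depth limits WT R-3 most, where 46825 and 50677 counts were assigned.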
